A study of Mus musculus with 2 samples.

Results

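Muscle fibres conduct action potentials along the sarcolemma, their surface membrane, and 6 genes that set this excitability or restore the ion gradients afterwards are described here: Scn4a, Clcn1, Atp1b1, Atp1b2, Kcnj2 and Kcnj11. They were chosen by symbol for their roles in membrane excitability and ion recovery, with earlier results of these data known, and are 6 of the 55536 genes listed. The RNA came from gastrocnemius, a mixed muscle of the calf. The mice were B6CASTF1/J males, 2 months old, which are hybrids of a laboratory strain and the CAST strain with no further treatment or allele named in the labels. There was 1 group of 2 libraries (replicates 1 and 2), each made from 300 ng of total RNA to which ERCC spike-ins, synthetic transcripts of known amount, were added. The labels give separate tissue samples but 1 shared donor entry and do not state separate animals, so the spread between the libraries may be technical. The tissue is whole muscle, so nerve, vessel and connective tissue cells contribute RNA, and in such bulk samples fewer cells of a type cannot be told apart from less RNA per cell.

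An action potential in skeletal muscle is started by Nav1.4, the voltage-gated sodium channel whose pore is encoded by Scn4a. ClC-1, encoded by Clcn1, carries the large resting chloride conductance that returns the membrane to rest, and its loss causes myotonia, in which fibres fire on after the stimulus has ended. Kir2.1, from Kcnj2, is an inward rectifier that holds the resting potential, and Kir6.2, from Kcnj11, is the pore of the KATP channel, which opens as ATP falls. The sodium pump, Na,K-ATPase, returns sodium and potassium across the membrane. Its catalytic alpha subunit needs a glycosylated beta subunit to reach the membrane, and Atp1b1 and Atp1b2 encode the beta1 and beta2 forms.

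Clcn1 is the member whose splicing is best known in mouse muscle. Inclusion of exon 7a shifts the reading frame, and the splicing factor Mbnl1 promotes its skipping in adult muscle, which fails in myotonic dystrophy models. The exon lies at chr6:42293444-42293522 (mm10, plus strand) in the intron between exons 6 and 7 of the gene and has 79 bases. The coding frame is closed at the end of exon 6 (0 open bases), and 79 bases leave a remainder of 1 base after whole codons. Read on in that frame, the first stop codon is a TGA at base 18 of exon 7. The junctions with and without the exon are shown because they set apart the models whose shares are given further on, with 20 flanking bases each side, exon 7a in capitals in the first line, and the stop codon in capitals in the third. All are written 5′ to 3′ from the GENCODE M21 transcripts.
Clcn1 exon 6, exon 7a, exon 7: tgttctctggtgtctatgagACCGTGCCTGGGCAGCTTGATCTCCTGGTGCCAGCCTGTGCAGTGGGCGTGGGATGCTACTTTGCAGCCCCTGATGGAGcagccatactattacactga
Clcn1 exon 6 joined to exon 7: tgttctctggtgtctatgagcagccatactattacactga
Clcn1 stop codon in exon 7: actattacacTGAcatcctgaca

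Promoter windows are shown for a muscle-restricted gene, Clcn1, and for Atp1b1, a broadly expressed gene and the one of the 6 that differed most between the libraries. Each is the 250 bases before the annotated start on GRCm38.p6, from RefSeq, chr6:42286435-42286684 (plus strand) for Clcn1 and chr1:164458356-164458605 (minus strand) for Atp1b1. RefSeq windows were matched for 4 of the 6 genes, Atp1b2 and Kcnj11 being the others. Both strands were searched for CANNTG, the E-box read by myogenic factors, for the MEF2 element, for GGGCGG, the GC box, for TATAAA, the TATA box, and for TGACCT, a nuclear receptor element. Capitals mark E-boxes and the MEF2 element in Clcn1 and the GC box, on the other strand, in Atp1b1.
Clcn1 promoter: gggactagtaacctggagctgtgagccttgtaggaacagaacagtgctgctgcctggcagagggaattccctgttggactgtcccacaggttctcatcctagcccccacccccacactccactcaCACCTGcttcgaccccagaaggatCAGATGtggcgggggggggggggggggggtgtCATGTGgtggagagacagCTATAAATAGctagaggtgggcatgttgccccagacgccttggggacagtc
Atp1b1 promoter: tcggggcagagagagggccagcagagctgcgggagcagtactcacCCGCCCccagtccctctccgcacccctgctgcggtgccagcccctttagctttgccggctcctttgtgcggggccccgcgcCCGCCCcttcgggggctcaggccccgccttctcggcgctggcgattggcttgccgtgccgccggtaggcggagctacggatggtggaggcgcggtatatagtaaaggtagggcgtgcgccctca

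The Clcn1 window held 3 E-boxes and 1 MEF2 element, which overlaps its 1 TATA box. Of the 32851 windows in the table, 66.2% held at least 1 E-box, 12.2% at least 3, 0.508% a MEF2 element and 12.4% a TATA box. The Atp1b1 window held 2 GC boxes, a sequence that 32.7% of all windows hold at least once, and 0 E-boxes. Kcnj2 held 2 E-boxes and 2 GC boxes, and Scn4a, whose window overlaps an exon of the upstream model Scn4a-202, held 0 of each. TGACCT, held by 14.0% of windows, was in 0 of the 4. GC content was 60.0% for Clcn1, 61.6% for Scn4a, 65.6% for Kcnj2 and 70.4% for Atp1b1. These are letter matches in a fixed window and not binding sites.

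Measured per transcript length, the 6 genes spanned a range from 21.8 to 176 TPM (transcript abundance corrected for length and scaled to a fixed total), with Scn4a at the top and Kcnj2 at the bottom, and all 6 were detected in both libraries. TPM values here are those of the gene tables deposited by the authors, called the first tables. The second tables, transcript estimates of another kind, were summed to genes as a separate estimate. The order by mean of whole genes was Scn4a, Atp1b2, Atp1b1, Clcn1, Kcnj11, Kcnj2 in both kinds of table. On the main coding models alone the places of Scn4a and Clcn1 change, as given further on. Among neighbours in the first tables, the ranges over the libraries overlapped for Atp1b1 and Clcn1, and for no other pair. Among nuclear protein-coding genes ranked by mean TPM, Scn4a held rank 268, Atp1b2 rank 377, Atp1b1 rank 655, Clcn1 rank 743, Kcnj11 rank 1194 and Kcnj2 rank 2086.

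**Figure D1:**
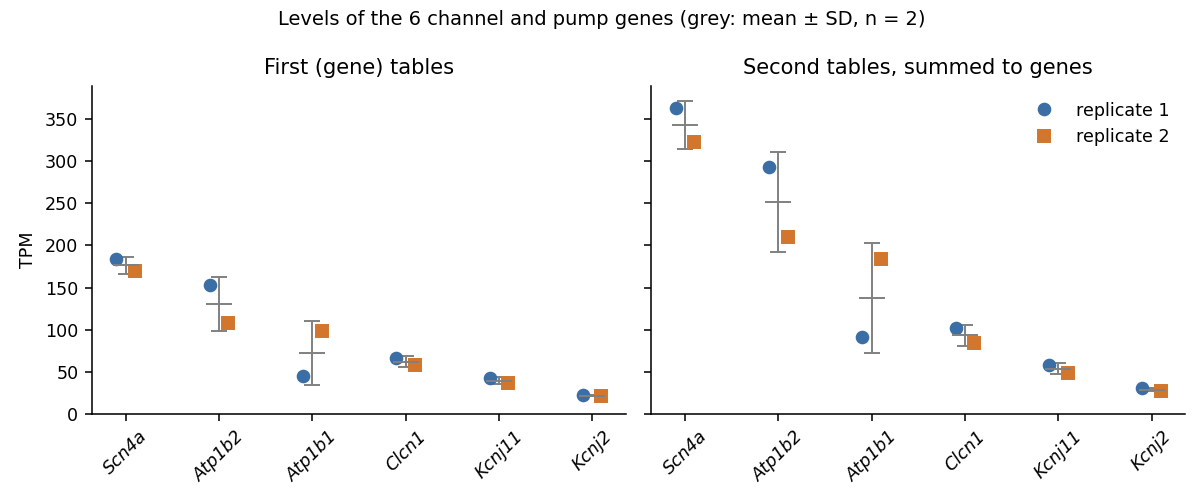
Level of each gene in TPM (vertical axis, linear, from 0) in the first tables (left) and the second tables summed to genes (right). Circles are replicate 1, squares replicate 2, and grey bars the mean ± SD (n = 2). Atp1b1 is the gene whose libraries stand farthest apart for its level, at 44.9 and 98.8 TPM in the first tables.

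The libraries were similar in depth, with 42724520 expected counts on genes in replicate 1 and 42280091 in replicate 2. With spike-ins the totals were 42925570 and 42467674, of which 3 reads, the limit that a count of 0 allows, are 0.0699 and 0.0706 CPM (counts scaled to library size). With 1 group there is no comparison between conditions. The comparison made is of replicate 2 with replicate 1, by a conditional binomial test (exact, two-sided) on rounded counts scaled by TMM, a normalisation to the bulk of genes, and adjusted by Benjamini-Hochberg over the 14827 genes whose counts summed to 20 or more. It compares those libraries only, covers counting error only, and has no replicate check. Of the 14827 genes, 3878 (26.2%) passed an adjusted p of 0.05, 2142 (14.4%) higher in replicate 2 and 1736 (11.7%) higher in replicate 1. With a fold of at least 1.5 as well, 1029 (6.94%) passed, 621 (4.19%) higher in replicate 2 and 408 (2.75%) higher in replicate 1. All 6 genes were tested. Of them, 1 was higher in replicate 2, 4 were higher in replicate 1 and 1 was not called, and 1 passed the 1.5-fold rule. The 26.2% is over genes with summed counts from 20 up, while each of the 6 had at least 3359 counts in each library. At high counts the test calls small ratios, 1.04-fold for Scn4a, so the calls of the 6 are not comparable with that share. The share called among genes of like depth is not given here. Their median log2 ratio was -0.08, beside 0.00 over all genes tested.

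The libraries differed in fibre-type markers, whose values are given here once for all the ratios that follow. All 9 fast fibre markers were higher in replicate 1 and 0 of them by 1.5-fold, with a median log2 ratio of -0.28 and a summed level of 76177 TPM in replicate 1 and 59859 TPM in replicate 2. The most abundant were Tnnt3, fast troponin T, at 14906 and 11890 TPM, and Mylpf, fast myosin light chain, at 12950 and 9798 TPM. All 8 slow fibre markers were higher in replicate 2 and all 8 passed the 1.5-fold rule. Their median log2 ratio was 1.36 and their summed level 1254 and 3196 TPM. Myl2, a slow myosin light chain, stood at 304 and 800 TPM and Myl3, another, at 207 and 543 TPM. All 17 fibre markers were detected in both libraries, with the fast ones far above the slow ones in summed level. How much of any difference described here goes with the fibre-type markers was not tested.

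Scn4a (ENSMUSG00000001027.7, chr11:106318592-106353288, minus strand) was the most abundant of the 6, with 23594 expected counts in replicate 1 and 21988 in replicate 2. Its level was 183 and 169 TPM (176 ± 10.03, SD, n = 2). Replicate 1 was slightly the higher, by 1.04-fold (log2 ratio -0.05, interval -0.08 to -0.03, exact binomial test, adjusted p = 0.000595). With scaling by spike-in counts the log2 ratio was -0.0017 and the call was lost in the same exact test (adjusted p = 0.969). Scn7a, a sodium-sensing relative, stood at 0.92 and 0.74 TPM.

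Scn4b, the beta4 subunit of sodium channels, stood at 78.7 and 88.5 TPM. It was higher in replicate 2 (log2 ratio 0.22, exact binomial test, adjusted p = 1.29e-35). Of the 13 other sodium channel genes 7 were tested, 1 was higher in replicate 2, 1 in replicate 1 and 5 were not called, with a median log2 ratio of -0.04. That split, replicate 2 first, was 1 and 2 with total-count scaling and 1 and 0 with spike-in scaling.

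Scn4a TPM rested on a pair of annotated models that share 0 exons. Scn4a-201 holds 24 exons and 5523 coding bases and starts at its coding start, with 0 annotated bases before it. Scn4a-202 is a processed transcript of 2 exons that lies wholly upstream of it. Scn4a-201 stood at 101 and 94.4 TPM and Scn4a-202 at 82.0 and 74.7 TPM. The short model thus took 44.7% and 44.2% of the TPM of the gene, but 4.11% and 4.02% of its counts (969 and 884 reads), because TPM divides by length. In the second tables it took 62.3% and 62.5% of the TPM. On Scn4a-201 alone the gene averaged 97.9 TPM, below the 114 TPM of Atp1b2-201, so the first place of Scn4a depends on counting the short model, and the ranges of these coding models over the libraries overlapped. These per-transcript values were added after seeing the data.

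**Figure D2:**
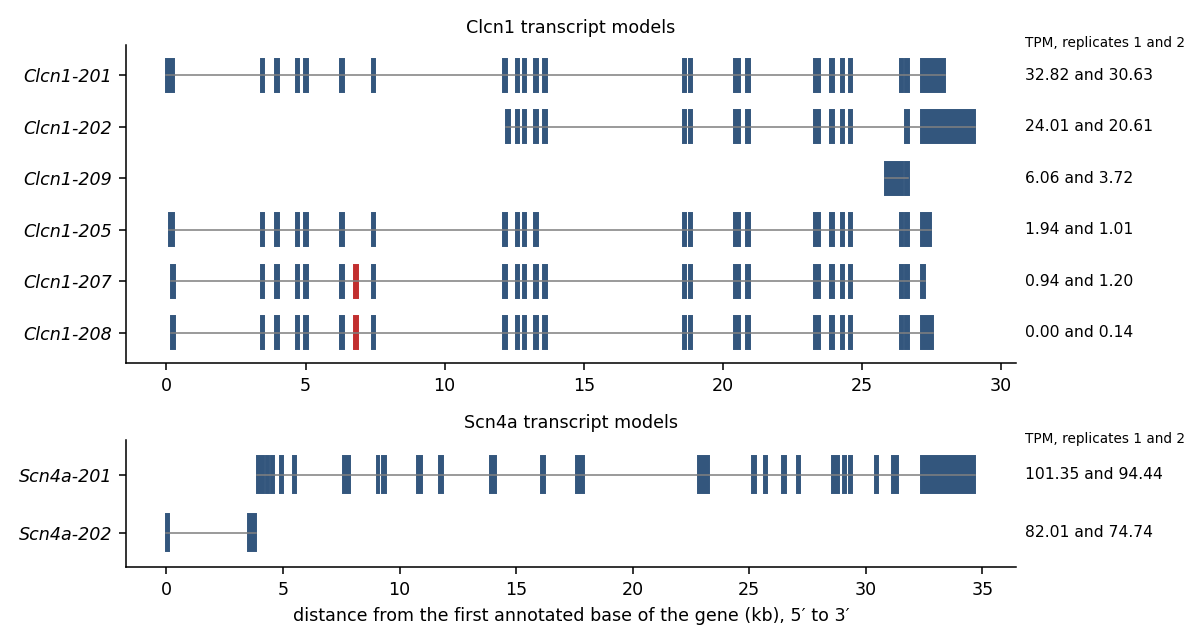
Exons (boxes) of the Clcn1 models of interest and both Scn4a models against distance from the first annotated base of the gene in kb, 5′ to 3′, with exon 7a in red and the TPM of each model in replicates 1 and 2 at the right. Scn4a-202 lies before Scn4a-201 and shares no exon with it, and the processed transcript of Clcn1, in the second row, starts in exon 8 and runs past the end of Clcn1-201.

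Clcn1 (ENSMUSG00000029862.15, chr6:42286685-42315756, plus strand) had 7110 expected counts in replicate 1 and 6352 in replicate 2. Its level was 66.6 and 57.8 TPM (62.2 ± 6.24, SD, n = 2). Replicate 1 was higher by 1.08-fold (log2 ratio -0.11, interval -0.16 to -0.07, exact binomial test, adjusted p = 4.02e-05). That ratio lay within the spread of the spike-in RNAs given above. With scaling by spike-in counts it was -0.063, close to the threshold (exact binomial test, adjusted p = 0.0448). The second tables gave 102 and 84.6 TPM, with replicate 1 again the higher. The last 445 bases of the gene overlap Fam131b on the other strand, and no source used here gives the strand setting of the counting. Fam131b itself had 18 and 8 reads.

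In the first tables the main coding model of Clcn1 accounted for about as much TPM as its other models together. Clcn1-201, with 23 exons, stood at 32.8 and 30.6 TPM, which is 49.3% of the gene in replicate 1 and 53.0% in replicate 2. A processed transcript of the gene, with no annotated coding frame, took 36.0% and 35.7%, at 24.0 and 20.6 TPM. It begins inside exon 8, leaves out exon 21 of 105 bases, and ends in a last exon of 1950 bases where that of Clcn1-201 has 850. Clcn1-209, a retained intron model, stood at 6.06 and 3.72 TPM. The 6 models annotated for nonsense-mediated decay, the pathway that degrades messages with an early stop, took 5.60% and 4.90% in the first tables and 15.5% and 16.0% in the second. In the second tables Clcn1-201 took 40.7% and 43.4%, less than the other models together. A further coding model, Clcn1-204, took 1.77% and 0.328% there and stood at 0 TPM in both libraries of the first tables.

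Exon 7a, shown above with its junctions, is held by 2 annotated models, Clcn1-207 and Clcn1-208. Together they stood at 0.94 and 1.34 TPM, or 1.41% and 2.32% of the gene, from 85.1 and 123 expected counts. The second tables gave 4.93 and 4.69 TPM, or 4.85% and 5.54%. The share of the whole gene was low in all 4 tables and lower in the first tables than in the second. That total includes models that start after exon 7a and so can neither hold nor skip it. The processed transcript is such a model, at 36.0% and 35.7% of the gene in the first tables and 32.3% and 33.1% in the second. The share among models that span the exon is thus higher than the values above, and is not given here. The values above are model estimates over whole transcripts and not counts of junction reads, which the tables do not give. Mbnl1, the factor named above, stood at 232 and 204 TPM and its relative Mbnl2 at 111 and 118 TPM.

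**Figure D3:**
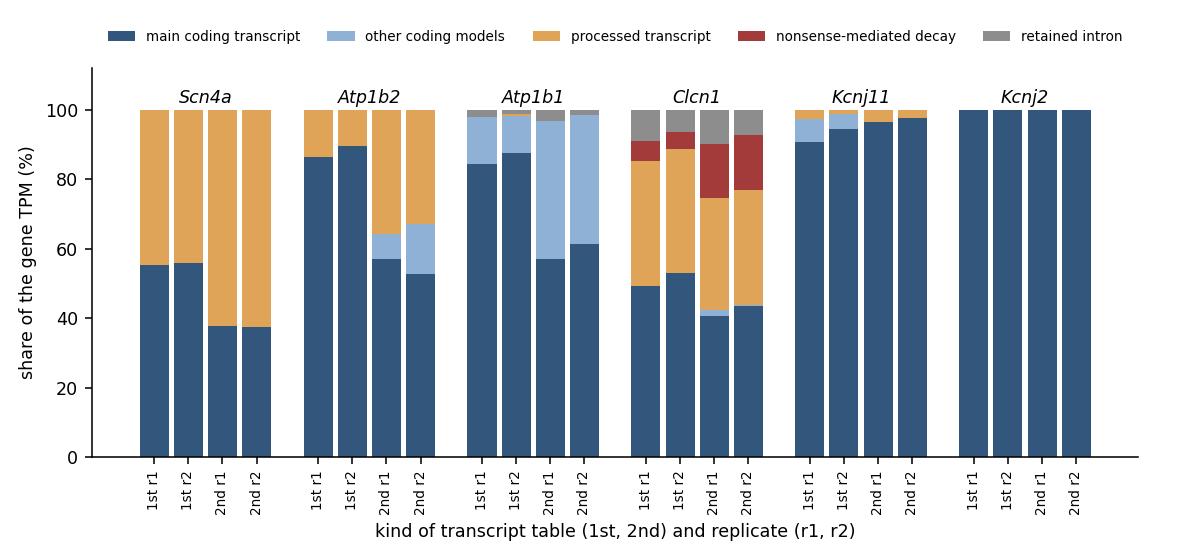
Share of the TPM of each gene (vertical axis, percent) by kind of annotated transcript model, for the first and second transcript tables and both replicates. Clcn1 is split among the most kinds of model, Kcnj2 has 1 model at 100%, and the processed transcript share of Scn4a is larger in the second tables.

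By whole-gene TPM, other chloride channels and their relatives were lower than Clcn1. Clcn1-201 alone, at 32.8 and 30.6 TPM, was below the whole gene Ano5. Ano5, an anoctamin tied to muscular dystrophy, stood at 43.3 and 38.1 TPM, Ano6, a lipid scramblase, at 19.1 and 17.6 TPM, and Clcn4, an endosomal chloride-proton exchanger, at 11.7 and 11.6 TPM. Clcn2, the close relative of ClC-1 at the plasma membrane, stood at 0.40 and 0.28 TPM, which is 167-fold and 206-fold below Clcn1. Of the 13 other chloride genes 9 were tested, 1 was higher in replicate 2, 2 were higher in replicate 1 and 6 were not called, with a median log2 ratio of 0.02. The one higher in replicate 2 was Ano1, a calcium-activated chloride channel, from 109 to 159 reads. Clcn5, an endosomal exchanger, was 1.74-fold higher in replicate 1 (exact binomial test, adjusted p = 0.000343) on 146 and 81 reads. Ano1 and Clcn5 were singled out after their values were seen.

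Of the 6 genes, the beta subunits of the sodium pump differed most between the libraries. In rat, beta1 is known to prevail in slow oxidative muscle and beta2 in fast glycolytic muscle. Atp1b1 (ENSMUSG00000026576.12, chr1:164437109-164458355, minus strand) had 3359 expected counts in replicate 1 and 7594 in replicate 2. Its level was 44.9 and 98.8 TPM (71.8 ± 38.1, SD, n = 2). Replicate 2 was the higher, and the intervals deposited with the TPM, 42.0 to 47.5 and 93.5 to 102, did not overlap. The difference was 2.34-fold (log2 ratio 1.23, interval 1.17 to 1.28), with an adjusted p of the exact binomial test too small to be stored as a number above 0. In size it stood at percentile 97.5 of all genes tested, and above the -0.40 to 0.81 that held the central 95% of genes whose counts summed to 2000 or more. The second tables gave 91.2 and 184 TPM.

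Atp1b2 (ENSMUSG00000041329.13, chr11:69599736-69605942, minus strand) went the other way, with 13826 expected counts in replicate 1 and 9924 in replicate 2. Its level was 153 and 108 TPM (130 ± 31.8, SD, n = 2). Replicate 1 was the higher, and the deposited intervals of 146 to 154 and 103 to 109 TPM did not overlap. The difference was 1.35-fold (log2 ratio -0.43, interval -0.47 to -0.39, exact binomial test, adjusted p = 5.22e-113). The second tables gave 293 and 210 TPM, and replicate 1 was again the higher.

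Within a library the ratio of the beta forms does not depend on library scaling. Atp1b2 was 3.40-fold above Atp1b1 in replicate 1 and 1.09-fold above it in replicate 2. On the log2 scale the ratio of Atp1b1 to Atp1b2 was -1.76 and -0.13 (-0.95 ± 1.16, SD, n = 2), and in the second tables -1.69 and -0.19. On whole genes Atp1b2 was thus the higher in both libraries and both kinds of table, by a wide margin in replicate 1 and a narrow one in replicate 2. The summed beta level was close, at 210 and 218 TPM. Atp1b1 made up 21.3% of it in replicate 1 and 45.2% in replicate 2, and Atp1b2 72.5% and 49.3%. Atp1b3, the beta3 form, took 5.85% and 5.13%, and Atp1b4, a muscle protein of the inner nuclear membrane in placental mammals, 0.271% and 0.270%.

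The models of the beta genes were mostly coding in the first tables. Atp1b1-201 stood at 37.9 and 86.5 TPM, and coding models made up 97.8% and 98.1% of the gene. Atp1b2-201 stood at 132 and 96.6 TPM, with coding models at 86.4% and 89.7%, and at 64.2% and 67.0% in the second tables. In the first tables, the log2 ratio of beta1 to beta2 on the main coding models averaged -0.98, close to the -0.95 from whole genes. In the second tables Atp1b1-201 stood at 51.9 and 113 TPM and Atp1b2-201 at 167 and 110 TPM, values added after seeing the data. There the main beta1 model was slightly the higher in replicate 2, unlike the whole genes. The 3′ end of Atp1b1 overlaps Nme7 on the other strand over 617 bases, and Nme7 itself had 31 and 34 reads.

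Fxyd1, phospholemman, which tunes pump affinity, stood at 370 and 336 TPM and was not called (log2 ratio of counts 0.00, exact binomial test, adjusted p = 0.967).

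Of the 13 other pump subunits and FXYD partners 9 were tested, 3 were higher in replicate 2, 0 in replicate 1 and 6 were not called, with a median log2 ratio of 0.00. Fxyd6, a FXYD protein singled out after its value was seen, stood at 10.5 and 31.9 TPM. It was 3.14-fold higher in replicate 2 (log2 ratio 1.65, exact binomial test, adjusted p = 7.29e-152). Atp1b1 and Fxyd6 were thus higher in the library with the higher slow fibre markers, and Atp1b2 in the one with the higher fast fibre markers, and the part of the fibre markers in these differences was not tested.

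**Figure D4:**
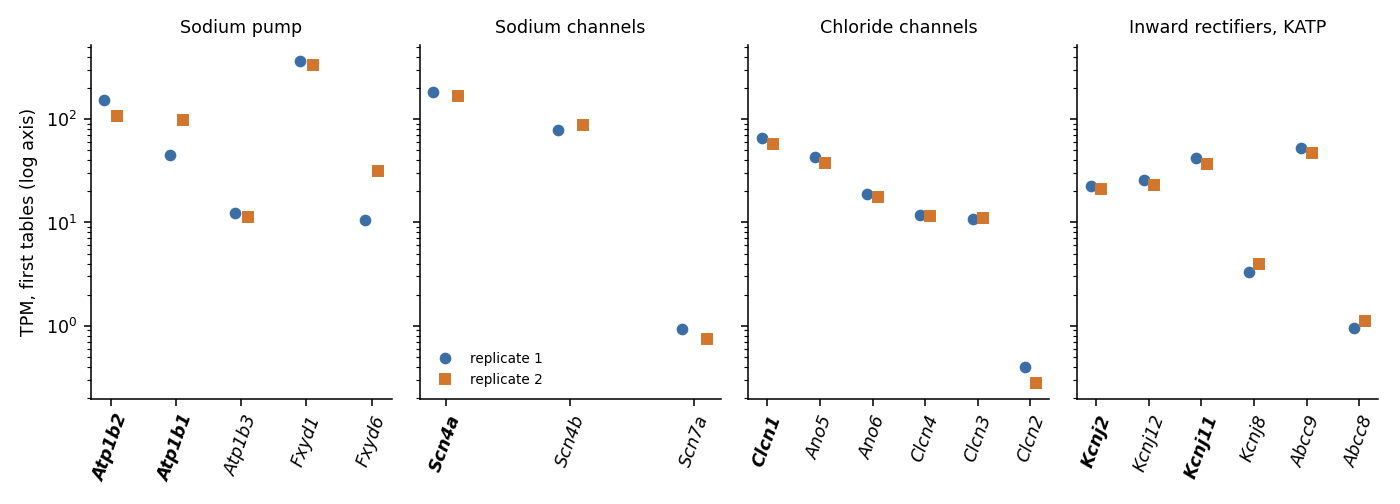
TPM in the first tables (log axis) of the genes studied (bold) and some of their relatives and partners in 4 groups, with circles for replicate 1 and squares for replicate 2. Atp1b1 and Fxyd6 are the points that part most between the libraries, and Clcn2 and Abcc8 lie far below Clcn1 and Abcc9.

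The inward rectifier Kcnj2 (ENSMUSG00000041695.2, chr11:111066164-111076821, plus strand) was the least abundant of the 6 and, with TMM scaling, the one with the smallest log2 ratio. It had 4121 expected counts in replicate 1 and 3890 in replicate 2, at 22.5 and 21.2 TPM (21.8 ± 0.905, SD, n = 2). It was not called different (log2 ratio -0.03, interval -0.10 to 0.03, exact binomial test, adjusted p = 0.503). Under spike-in scaling the sign of that small ratio turned, to 0.017 (exact binomial test, adjusted p = 0.79). Kcnj12, the related Kir2.2 that joins Kir2.1 in channel tetramers, stood at 25.8 and 23.2 TPM, slightly above Kcnj2 in both libraries. The log2 ratio of Kcnj12 to Kcnj2 was 0.20 and 0.13.

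The KATP pore Kcnj11 (ENSMUSG00000096146.2, chr7:46093953-46100764, minus strand) had 4094 expected counts in replicate 1 and 3648 in replicate 2. Its level was 42.6 and 36.6 TPM (39.6 ± 4.20, SD, n = 2). Replicate 1 was higher by 1.09-fold (log2 ratio -0.12, interval -0.18 to -0.05, exact binomial test, adjusted p = 0.00211). The deposited TPM intervals of 40.4 to 46.2 and 34.7 to 39.4 lay apart, as did those of Scn4a and Clcn1. Spike-in scaling ended the call of Kcnj11 (log2 ratio -0.066, exact binomial test, adjusted p = 0.129). The model Kcnj11-205, a single exon, carried 38.6 and 34.6 TPM of the gene.

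Kir6.2 forms the channel with a sulfonylurea receptor, and the receptor RNA in this muscle was nearly all Abcc9, which encodes SUR2. Abcc9 stood at 53.1 and 47.5 TPM, and Abcc8, which encodes the SUR1 of pancreatic beta cells, at 0.94 and 1.12 TPM. Abcc9 was thus 56.5-fold and 42.4-fold above Abcc8. On counts Abcc8 was called higher in replicate 1, with 119 and 80 reads (exact binomial test, adjusted p = 0.0495), while its TPM was higher in replicate 2, so its direction depends on the unit. With spike-in scaling the call was lost (exact binomial test, adjusted p = 0.0769). Abcc9 was called higher in replicate 1 (log2 ratio -0.11, exact binomial test, adjusted p = 1.1e-08), the direction of Kcnj11. Kcnj8, which encodes the vascular pore Kir6.1, stood at 3.29 and 3.93 TPM, 12.9-fold and 9.32-fold below Kcnj11.

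Markers of mural cells, the pericytes and smooth muscle of vessels that also carry KATP channels, summed to 980 and 935 TPM, most of it Des, which fibres express as well. Without Des the sum was 119 and 104 TPM, and Rgs5 stood at 56.6 and 59.4 TPM. Their part in the Kcnj8 and Abcc9 levels was not tested. Of the 15 other inward rectifier and KATP genes 5 were tested, 1 was higher in replicate 2, 2 in replicate 1 and 2 were not called, with a median log2 ratio of -0.10. The split was 0 and 3 with DESeq2 or total-count scaling, where the call of Kcnj8 was lost and Kcnj12 was called, and 1 and 1 with spike-in scaling. Of the 15, 4 were listed at 0 in both libraries in the first tables, while the second tables gave each of those at least 1 read in at least 1 library.

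**Figure D5:**
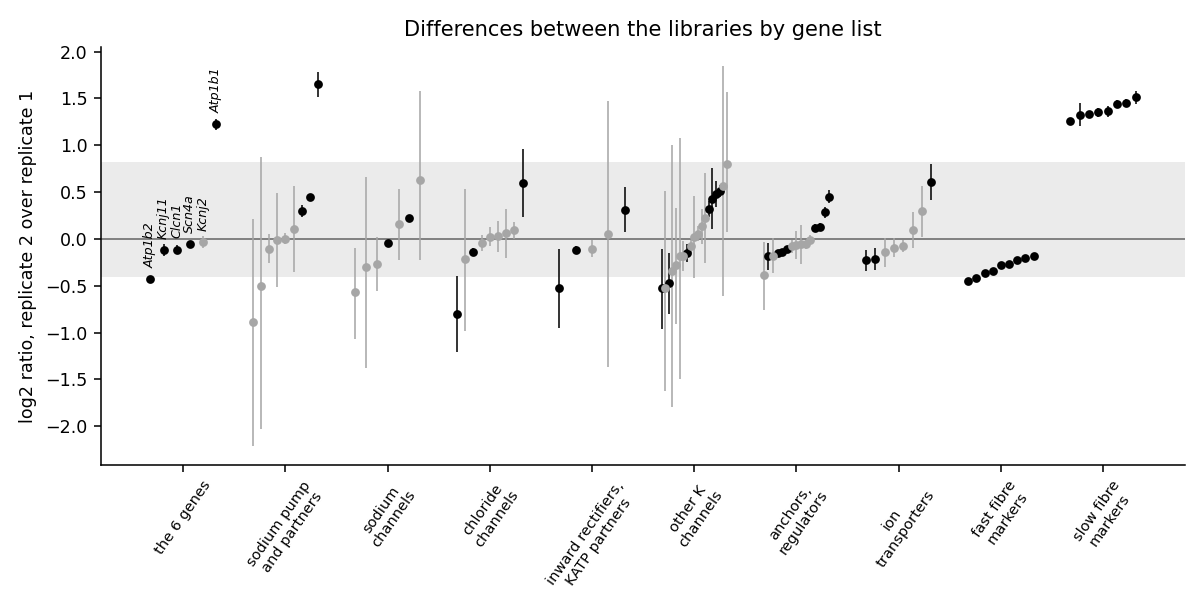
Log2 ratio of replicate 2 over replicate 1 for each gene tested, by list, with 95% intervals for counting error. Black points passed an adjusted p of 0.05, grey points did not, and the grey band spans the central 95% of genes whose counts summed to 2000 or more (-0.40 to 0.81). Atp1b1 and Fxyd6 lie above the band beside the slow fibre markers, while Atp1b2 lies just below it, near the lower fast fibre markers.

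Potassium channels that repolarise the membrane were a further list. Kcna7, the Kv1.7 pore, stood at 26.8 and 32.3 TPM, Kcnma1, the calcium-activated BK pore, at 20.6 and 27.9 TPM, and Kcnc4, the Kv3.4 pore, at 20.4 TPM in both. Kcna7 (log2 ratio 0.32) and Kcnma1 (log2 ratio 0.51) were called higher in replicate 2 and Kcnc4 was not called. Of the 34 voltage-gated and calcium-gated potassium channel genes 19 were tested, 4 were higher in replicate 2, 3 in replicate 1 and 12 were not called, with a median log2 ratio of 0.02. That split, replicate 2 first, was 3 and 5 with total-count scaling and 5 and 1 with spike-in scaling.

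Anchors and regulators of these proteins were split between the libraries. Mbnl1 (log2 ratio -0.11) and Ank1, ankyrin 1, an adaptor between membranes and the cytoskeleton, at 211 and 185 TPM (log2 ratio -0.15), were called higher in replicate 1, and Mbnl2 (log2 ratio 0.12) higher in replicate 2. Of the 17 genes of this list 15 were tested, 4 were higher in each library and 7 were not called, with a median log2 ratio of -0.07. That split, replicate 2 first, was 4 and 6 with total-count scaling and 4 and 3 with spike-in scaling. Among 9 ion transporters 8 were tested, 1 was higher in replicate 2, 2 in replicate 1 and 5 were not called, with a median log2 ratio of -0.08. Here the split was 1 and 4 with total-count scaling and 2 and 2 with spike-in scaling. Slc12a2, the sodium-potassium-chloride cotransporter, stood at 18.4 and 16.9 TPM and Slc8a3, a sodium-calcium exchanger, at 10.2 and 8.46 TPM.

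Over the 114 genes of these 7 lists, 51 reached 1 TPM in both libraries and 11 were listed at 0 in both in the first tables, of which the second tables gave some at least 1 read. Of the 72 tested, 15 were higher in replicate 2, 14 in replicate 1 and 43 were not called, beside 26.2% called over all genes tested. The split moved with scaling, to 13 and 22 by total counts and to 18 and 9 by spike-in counts, in counts added after seeing the data. With the 1.5-fold rule, 3 were higher in replicate 2 and 1 in replicate 1, beside 6.94% of all genes. The median log2 ratio was -0.05, beside 0.00 over all genes tested. The 3 were Fxyd6, Ano1 and Slc12a4, a potassium-chloride cotransporter with 358 and 527 reads, named after its values were seen, and the 1 was Clcn5. Ano1 (1.51-fold) and Slc12a4 (1.52-fold) passed the 1.5-fold rule narrowly, and these counts are not given for other scalings.

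Other cell types in the tissue were present at lower levels and did not all move alike. Endothelial markers summed to 84.7 and 84.1 TPM, with 5 of 10 called higher in replicate 2 and 1 the other way, and with Egfl7 at 21.04 and 15.0 TPM and Cdh5 at 14.3 and 15.7 TPM. Schwann cell markers summed to 35.9 and 30.2 TPM with 0 of the 7 tested called, Pmp22 at 11.3 and 10.7 TPM. Fibro-adipogenic markers summed to 521 and 361 TPM, with 6 of 8 called higher in replicate 1 and 1 the other way, Gsn at 265 and 137 TPM and Dcn at 106 and 87.4 TPM. Mural markers gave 1 called higher in replicate 2 and 3 in replicate 1, but 4 and 3 both with spike-in scaling and in the second tables. Adipocyte markers summed to 6.41 and 3.38 TPM with 1 of 4 tested called, Cfd at 5.06 and 2.74 TPM and Cidec at 0.38 and 0.20 TPM. Macrophage markers summed to 25.5 and 22.03 TPM with 1 of 7 called, Lyz2 at 11.99 and 11.3 TPM and C1qb at 3.30 and 2.56 TPM. Several of these genes, Gsn and Des among them, are also expressed by muscle fibres, and the part of these cells in the levels given here was not tested.

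Both kinds of table gave the same direction for each of the 6 genes, but levels differed between them by more than a common scale. After centring on the 9752 protein-coding genes compared, the second tables were higher than the first by 0.41 on the log2 scale for Scn4a and for Atp1b1 and by 0.40 for Atp1b2. Clcn1 differed by 0.03, Kcnj11 by -0.11 and Kcnj2 by -0.15. The middle 90% of those genes spanned -0.40 to 0.58 in replicate 1. These whole-gene values include short models. In replicate 1, first and then second tables, Scn4a-202 stood at 82.0 and 227 TPM, Atp1b1-203 at 6.02 and 36.4, and Atp1b2-204 at 10.6 and 86.9. The main coding models stood at 101 and 137 TPM for Scn4a, 37.9 and 51.9 for Atp1b1, and 132 and 167 for Atp1b2. The part of the short models in the whole-gene differences was not tested. The rule for naming genes picks none for likeness of pattern to the 6, since 2 libraries give no pattern across conditions. Fxyd6, Ano1, Clcn5 and Slc12a4 stand outside that rule, having been named after their values were seen.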

How the data were processed

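Total RNA libraries of 2 gastrocnemius samples were used, 1 group. The first tables (gene and transcript) give expected counts and TPM per the file headers, from alignments to the transcriptome in the words of the deposited notes. Their posterior standard deviations and TPM interval bounds were read as scores, as deposited. Each TPM interval describes its own library without TMM scaling, so intervals that lie apart are not a test between libraries. The second tables, made from 1 file of reads each, give deposited estimated counts and TPM. The notes give mm10 and GENCODE M21 throughout. Programs, versions, strand setting and the level of the TPM intervals are named in no source used here. Reads were assigned to a reference of B6 type and alleles were not separated.

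Rounded expected counts were scaled by TMM (edgeR 4.0.16, R 4.3.3), with 0.5 added for log2 ratios. Entries that name no gene (6 and 3 counts) and spike-ins (201044 and 187580 counts) were left out. The exact binomial test (scipy 1.17.1) replaced an edgeR quasi-likelihood fit, which cannot be made with 1 library against 1. The test recovered 46 of 50 genes raised 1.5-fold, 43 of 50 lowered by that factor, 50 of 50 raised 2-fold and 50 of 50 lowered to 0.5 of their level in simulated counts of these libraries. Those counts held counting error alone, which the test assumes, and the changed genes had summed counts of at least 200. Recovery at lower counts or with further spread between libraries was not tested. Alternatives were scaling by DESeq2 1.42.0, by totals and by spike-ins, other count minimums, the second tables, posterior means and other TPM bases. Intervals (95%) reflect counting error alone, as reads without molecular identifiers can copy 1 molecule. A TPM ratio carries no test.

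The genes and lists were chosen with earlier results of these data known. Named genes are the 6, the 3 most abundant of each list, the genes of the ratios, and the 2 most abundant of each marker list, with exceptions stated where they occur. Some genes that the rule picks are not reported here.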

Additional observations from a re-analysis of the deposited data

How the results depend on the processing

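The direction of all 6 differences held under scaling by DESeq2 size factors and by total counts, with other count minimums, posterior means and the second tables, and so did their side of the threshold. Scaling by spike-in counts left Atp1b1 and Atp1b2 called the same way, and Clcn1 only narrowly (log2 ratio -0.063, exact binomial test, adjusted p = 0.0448). It ended the calls of Scn4a (log2 ratio -0.0017) and Kcnj11 (-0.066), and turned the uncalled ratio of Kcnj2 to 0.017. With that scaling 2843 genes passed as higher in replicate 2 and 1255 the other way, a share of 69.4% instead of 55.2%. The majority turned with DESeq2 size factors (1944 and 1960, 49.8%) and with total counts (1827 and 2134, 46.1%). A summed count of at least 200 gave 544 genes past 1.5-fold instead of 1029, with fewer genes tested. Mean levels in the second tables were 343 TPM for Scn4a, 251 for Atp1b2, 137 for Atp1b1, 93.2 for Clcn1, 53.7 for Kcnj11 and 28.8 for Kcnj2. The first-table means rescaled to nuclear protein-coding genes were 443, 326, 183, 156, 99.3 and 54.8 TPM in that order, which follows from the smaller total. Main coding transcripts alone, added after seeing the data, gave 97.9 TPM for Scn4a and 31.7 TPM for Clcn1. The log2 ratio of Kcnj12 to Kcnj2 was 0.30 in the second tables. The cause of the differences between the tables was not tested.

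No paired analysis was possible because there is 1 group. With 2 libraries and no residual degrees of freedom, differences between them carry counting error only, and genes with few reads, such as Abcc8 and Clcn2, are limited by depth.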
